A study of Mus musculus with 48 samples.

Results

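The 10 genes of the brain serotonin (5-HT) system described here were Tph2, Slc6a4, Maoa, Maob, Htr1a, Htr1b, Htr2a, Htr2c, Htr4 and Htr7. They were chosen by name, without a threshold on any value, out of 48440 genes in a table of read counts from the amygdala of 48 adult male mice aged 4 months, labelled C57BL/6 and, by the study's methods, from a line backcrossed on C57BL/6N. The mice formed 6 groups of 8. They were wildtype (Tph2+/+), heterozygous (Tph2+/-) or homozygous (Tph2-/-) for a null mutation of Tph2, and had been separated from the dam for 3 hours per day from postnatal day 2 to 15 (MS) or reared without this stress (C). All mice had passed through the same behavioral tests before their tissue was taken, so the C groups were untreated only in their rearing. Tissue powder of both hemispheres was pooled within each mouse, and 1 library was made per mouse. The amygdala was taken whole, and fewer cells of a type and less RNA per cell cannot be told apart in such tissue.

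5-HT is made from tryptophan in neurons of the raphe nuclei of the brainstem, whose axons reach the amygdala, so that the mRNAs of the synthesis enzyme and the transporter belong mainly to cell bodies outside of it. Tph2 encodes the tryptophan hydroxylase of brain neurons, which carries out the rate-limiting step, and Slc6a4 encodes the transporter that returns 5-HT from the synaptic space into these neurons. Maoa and Maob encode the monoamine oxidases of the outer mitochondrial membrane that break 5-HT and other amines down. The receptors act on the receiving cells or on the raphe neurons themselves. The receptors encoded by Htr1a and Htr1b lower cyclic AMP through Gi/o proteins, those encoded by Htr2a and Htr2c raise calcium through Gq/11, and those encoded by Htr4 and Htr7 raise cyclic AMP through Gs.

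A single gene supplied most of the signal of this system in the table. The 10 genes had 2720 counts over all 48 libraries, which is 0.00565% of the counts on genes, and 1839 of them (67.6%) lay on Htr1b. Htr2c had 249, Htr2a 206, Htr1a 171 and Htr7 163 counts. Maoa had 31, Htr4 25, Slc6a4 22, Maob 12 and Tph2 2 counts. Thus 5 of the 10 genes, all of them receptors, had a mean of at least 1 count per library, and synthesis, transport, breakdown and Htr4 were measured by single reads.

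The libraries were thin on genes and not alike. Counts on genes ranged from 609489 to 6296568 per library with a median of 738490, while 75.8% to 97.6% of the uniquely mapped pairs (median 97.5%) were listed as lying on no gene. In 4 libraries (Tph2+/+ C replicate 1, Tph2+/+ MS replicate 2, Tph2+/- C replicate 2 and Tph2-/- C replicate 1) the non-coding RNA Gm42418 had more than 500000 counts, and the 10 genes together had 27, 65, 25 and 54 counts there. The animal numbers of MS mice did not overlap those of C mice, 7 of which were numbered above all MS mice and the rest below, so that rearing and whatever the numbers stand for cannot be told apart. Transcripts that brain tissue holds in abundance had few counts as well: the means of 12 such genes lay between 4.75 and 58.5, with 7.10 for Actb and 8.50 for Snap25. Not all abundant transcripts were low: Cnp, of myelin, had a mean of 407.4 counts, and among the mitochondrial mRNA genes mt-Cytb had 950.9 and mt-Co1 744.02, while mt-Co2 had 0.146, mt-Co3 0.25 and mt-Atp8 0. The share of genes that lie with an exon opposite to an exon of another gene was larger at higher counts, with 10.7% of the 17006 genes with a mean below 1, 63.8% of the 5622 genes with a mean of at least 10 and 89.7% of the 1219 genes with a mean of at least 100. The library kit keeps the strand of the RNA, and the strand setting of the counting is not given in the sources used here. Whether reads were counted on the strand of the RNA was not tested, and the values below are therefore read counts listed under a gene, not proof of that gene's RNA.

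Of the 10 genes, Htr1b alone had an exon opposite to an exon of another gene, and this exon lay in its coding sequence. On GRCm38, Htr1b (ENSMUSG00000049511) occupies chr9:81628291-81633828 on the minus strand, and its coding sequence runs from 81631395 to 81632552. The antisense gene D430036J16Rik (ENSMUSG00000097466) lies on the plus strand at chr9:81631551-81645156. The exons of its 5 annotated transcripts share 852 bases with Htr1b, all of them in the coding sequence, which is 73.6% of the coding bases and 18.04% of all exon bases of Htr1b. The pair below shows the shorter of 2 separate stretches of shared exon, chr9:81632358-81632480 with 123 bases, read on each strand 5′ to 3′ from the GENCODE M21 transcripts. The 20 bases in capitals are the first of a D430036J16Rik transcript and their complement in Htr1b, because they show that a fragment of this stretch belongs to either gene by its strand alone.
D430036J16Rik, plus strand: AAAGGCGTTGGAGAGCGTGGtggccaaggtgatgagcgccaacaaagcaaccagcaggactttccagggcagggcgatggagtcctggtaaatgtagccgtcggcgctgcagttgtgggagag
Htr1b, minus strand: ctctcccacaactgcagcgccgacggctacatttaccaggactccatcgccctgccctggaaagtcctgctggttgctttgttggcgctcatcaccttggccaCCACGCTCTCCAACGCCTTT
A further stretch of 247 bases, chr9:81632033-81632279, forms the first exon of another D430036J16Rik transcript within the Htr1b coding sequence. Both promoter windows that RefSeq gives for D430036J16Rik lie wholly inside this coding sequence as well.

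D430036J16Rik had more counts than Htr1b in 48 of 48 libraries. Its counts ranged from 39 to 108 with a mean of 62.5, against 38.3 for Htr1b, and the ratio of D430036J16Rik to Htr1b within a library lay between 1.09 and 2.94 with a median of 1.56. Per kb of exon the levels were 27.96 mean counts for D430036J16Rik and 8.11 for Htr1b. Over the 48 libraries, the CPM of both genes (counts scaled to 1000000 of the TMM library size) had a Spearman rho of 0.40 and a Pearson r of 0.41, values that share library and depth. This rho was above 99.6% of those between Htr1b and the other genes with a mean of at least 5 counts. Whether the counts listed under Htr1b come from Htr1b mRNA or from RNA of the opposite strand cannot be told apart.

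**Figure D1:**
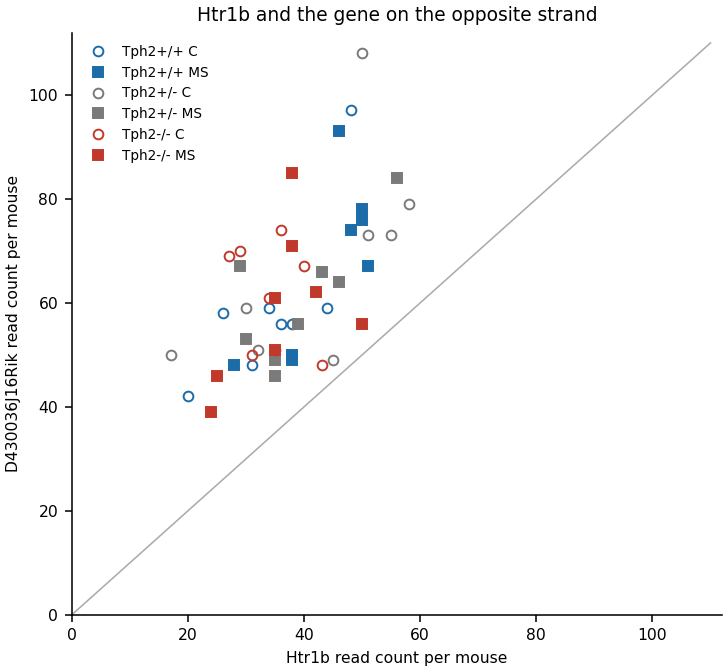
Read counts of Htr1b (horizontal axis) and of the antisense gene D430036J16Rik (vertical axis), with 1 point per mouse, open circles for C, filled squares for MS, and blue, grey and red for Tph2+/+, Tph2+/- and Tph2-/-. The line marks equal counts, and all 48 mice lie above it.

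The surrounding 5-HT pathway was taken as a list of 51 genes beside the 10, of which 46 had at least 1 count in any library. Among the 61 genes together, 5 of the 8 with a mean of at least 10 counts had an exon opposite to another gene. Of the 30 with a mean below 1, 3 had one. Over all genes with at least 1 count, the shares at these levels were close to this, at 63.8% and 10.7%. Of the 8, Slc18a1 (mean of 24.8 counts), Adcy5 (22.2) and Tdo2 (10.25) had no such exon. Slc18a2, the vesicular transporter that loads monoamines into synaptic vesicles, had a mean of 151.7 counts and shares 111 exon bases with the antisense gene Gm29261, which had 0.917. Htr2b, a Gq/11-coupled receptor known mainly from peripheral tissue, had a mean of 112.7 counts and shares 252 bases with Psmd1, which encodes a proteasome subunit and had 1.75. Gnal, the stimulatory G protein subunit of the olfactory system and striatum, had a mean of 108.1 counts and shares 852 bases with Mppe1, which had 220.8. Qdpr, which recycles the cofactor of tryptophan hydroxylase, had a mean of 0.417 counts, while the antisense gene Gm42413 that shares 332 of its exon bases had 511.9. Plcb1, a phospholipase downstream of Gq/11, had a mean of 3.27 counts against 282.4 for 9630028H03Rik on the opposite strand.

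Per length, the order of the 10 genes was Htr1b, Htr7, Htr1a, Htr2a, Htr2c, Maoa, Htr4, Slc6a4, Maob and Tph2. The mean count per kb of exon and library was 8.11 for Htr1b, with a 95% counting interval from the Poisson distribution of 7.74 to 8.49. It was 0.999 for Htr7 (interval 0.852 to 1.16), 0.794 for Htr1a (0.680 to 0.923), 0.766 for Htr2a (0.665 to 0.878) and 0.556 for Htr2c (0.489 to 0.630). Between neighbors in this order, the intervals of Htr7 and Htr1a overlapped, as did those of Htr1a and Htr2a. Htr1b stood apart from Htr7, and Htr2a from Htr2c. Below Htr2c followed a gap to 0.155 for Maoa, 0.106 for Htr4, 0.101 for Slc6a4, 0.0896 for Maob and 0.0145 for Tph2, in which each interval overlapped the next. The median over all genes tested with a known length was 0.331 mean counts per kb, so that the 5 receptor genes lay above it and the other 5 genes below. On this scale Htr1b lay at the 84.8th percentile.

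**Figure D2:**
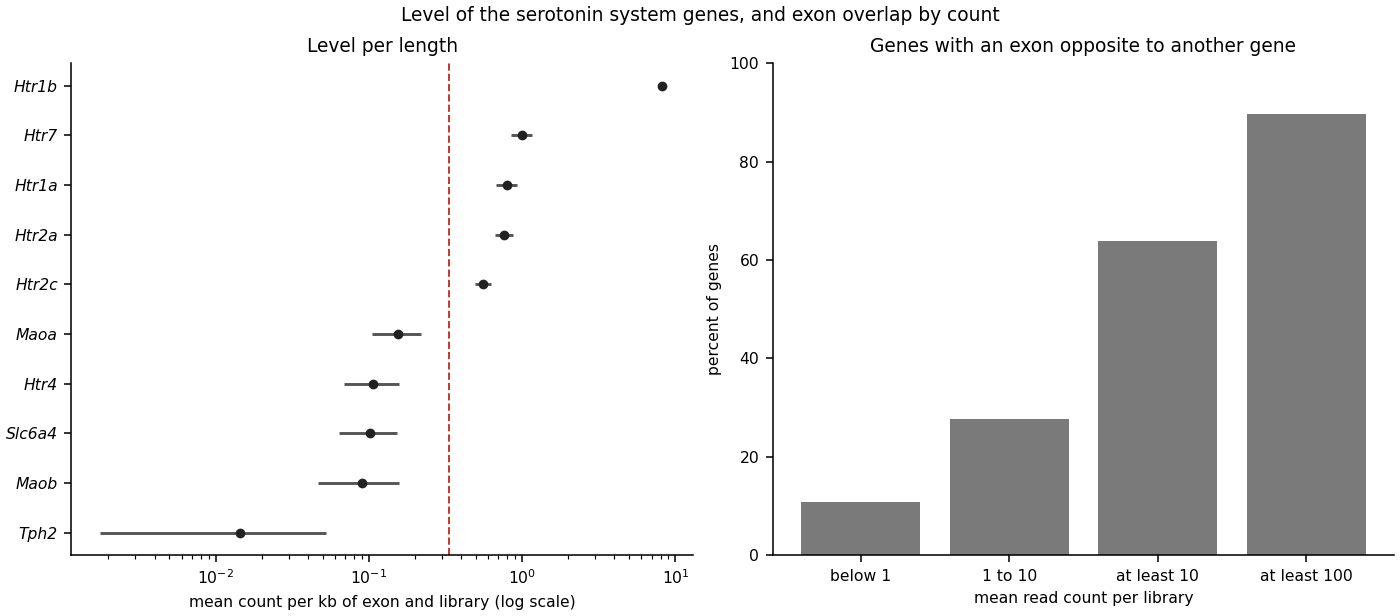
Left, mean count per kb of exon and library for the 10 genes on a log scale, with 95% counting intervals as bars and the median of all genes tested as a dashed line: Htr1b stands at 8.11 and Tph2 at 0.0145. Right, percent of genes that have an exon opposite to an exon of another gene, by mean read count per library, from 10.7% below 1 to 89.7% at 100 or more, the last class being part of the one before it.

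The counting floor was taken as 3 counts and covers counting error only. It was 2.88 to 7.07 CPM in a single library and 0.459 to 0.525 CPM over the 8 libraries of a group. Per kb of exon in a single library, the floor was 0.322 counts for Htr2c, 0.535 for Htr2a, 0.611 for Htr4, 0.635 for Htr1b, 0.662 for Slc6a4, 0.669 for Htr1a, 0.720 for Maoa, 0.883 for Htr7, 1.04 for Tph2 and 1.076 for Maob. Htr1b reached it in 48 of 48 libraries, Htr2c in 39, Htr2a in 38, Htr1a in 29 and Htr7 in 25. Maoa reached it in 2 libraries, Slc6a4, Maob and Htr4 in 1 each, and Tph2 in 0. Among these 5 receptors with a mean of at least 1 count, Htr1a and Htr2a had a spread among mice of a group close to that of counting alone. For Htr7, Htr1b and Htr2c the spread was larger. The variance was 0.922 times the counting variance for Htr1a, 1.05 for Htr2a, 1.33 for Htr7, 1.55 for Htr1b and 1.90 for Htr2c.

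Tph2 (chr10:115078641-115185022, minus strand) is the mutated gene and would be the check of the genotype, but it had no count in 46 of 48 libraries. The 2 counts were in 2 mice of Tph2-/- MS, with 1 each, while wildtype mice had 0 counts, which allows up to 0.525 CPM over the 8 libraries under C and 0.464 CPM after MS. The genotype labels can thus not be checked with this gene in the amygdala. The regulators that define serotonergic neurons had few counts: of 8 such genes 5 had any count, Fev had a mean of 0.0417 counts and Lmx1b of 2.04, and Gata3, En1 and Foxa2 were at 0. The highest of them was Nkx2-2, which is also used by oligodendrocyte precursors, with a mean of 6.67 counts and an antisense partner, Nkx2-2os, of 6.27.

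**Figure D3:**
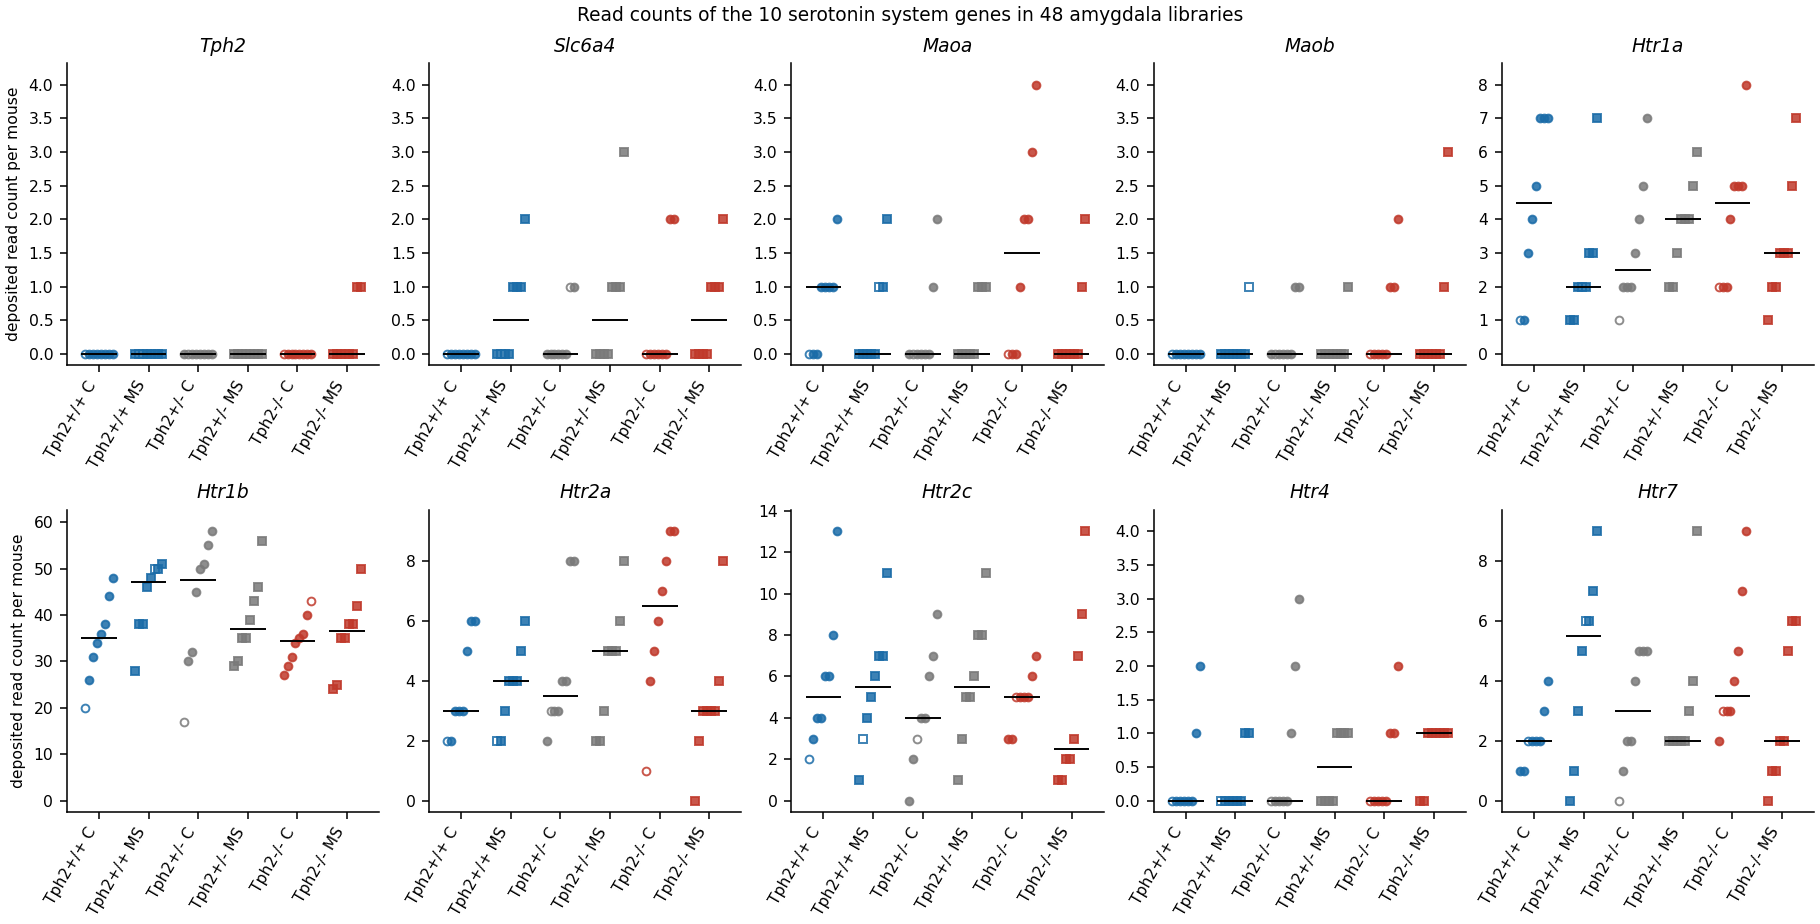
Deposited read counts per mouse of the 10 genes in the 6 groups of 8 mice, with 1 point per mouse, a line at the group median, circles for C, squares for MS, and open symbols for the 4 libraries rich in Gm42418. Htr1b lies between 17 and 58 in every group and Tph2 at 0 in 46 mice, and the vertical axes differ between genes.

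With all 6 groups tested at once, by edgeR's quasi-likelihood F test, 0 of the 10 genes had a nominal p below 0.01, and 0 had one below 0.05. The share over all 32234 genes tested was 2.00%. The smallest p among the 10 was 0.0910 (Slc6a4) and the largest 0.725 (Htr4). In 12 comparisons of groups, which gives 120 tests for the 10 genes, 12 had a nominal p below 0.05, or 10% against 5.27% over all genes, but these comparisons share mice. A gene counted as differentially expressed (DEG) where its nominal p was below 0.01 and its lg2FC above 0.2 in size. There were 2 such calls, both on genes with less than 1 count per library, and the smallest adjusted p of the 120 was 0.554.

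Slc6a4 (chr11:76998603-77032340, plus strand) was 1 of the 2 genes called, and was listed more often in MS than in C mice. MS mice had 16 counts in 12 of 24 mice and C mice 6 counts in 4 of 24. By group, Tph2+/+ C had 0 counts in all 8 mice, Tph2+/- C had 2 counts in 2 mice, and Tph2-/- C had 4 counts in 2 mice. Each MS group had counts in 4 of 8 mice, with 5 in Tph2+/+ MS, 6 in Tph2+/- MS and 5 in Tph2-/- MS. The ranges of the groups overlapped, since every group held mice at 0. Averaged over genotypes, the lg2FC of MS against C was 1.35 (SE 0.49), with p = 0.00605 from edgeR and p = 0.0816 from a permutation of mean counts that swapped rearing labels within genotypes. The adjusted p from edgeR was 0.650, in a comparison that called 1.26% of all genes. The ratio of counts scaled to library size was 2.57, with a 95% counting interval of 0.955 to 8.02. Without the 1 library with 3 counts (Tph2+/- MS replicate 1) the lg2FC from edgeR was 1.14 (SE 0.48), and DESeq2 gave 1.03 (SE 0.72) with all libraries, so that the call was lost in both. Without the 7 C mice numbered above the MS mice it was 2.00 (SE 0.62) and still called.

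The group at 0, Tph2+/+ C, entered several comparisons of Slc6a4. The floor of 3 counts lay within the 95% counting intervals of the 5 counts of Tph2+/+ MS (1.62 to 11.7) and of the 4 counts of Tph2-/- C (1.09 to 10.2). The fitted lg2FC depend on the prior count here and are no bounds. For MS in Tph2+/+ the lg2FC was 2.57 (SE 1.01), with p = 0.0119 from edgeR and p = 0.0769 from the two-sided exact permutation test of the Mann-Whitney U statistic on counts. For Tph2-/- against Tph2+/+ it was 2.27 under C (SE 1.001, p = 0.0250 from edgeR, exact permutation p = 0.467) and 1.13 over both rearing conditions (SE 0.56, adjusted p = 0.778). The MS effect in Tph2-/- minus that in Tph2+/+ was -2.29 (SE 1.13, adjusted p = 0.942). The 4 counts of Tph2-/- C were in replicates 7 and 8, both among the 7 C mice numbered above the MS mice, and without these 7 both of these C groups were at 0, so that none of these lg2FC of Tph2-/- against Tph2+/+ could be estimated.

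Maob (chrX:16709282-16817366, minus strand) was the other gene called, with 12 counts in all. Tph2-/- mice had 8 counts in 5 of 16 mice, Tph2+/- mice 3 counts in 3 of 16, and Tph2+/+ mice 1 count in 1 of 16. Most mice of every group were at 0, so that the groups overlapped. The lg2FC of Tph2-/- against Tph2+/+ over both rearing conditions was 1.81 (SE 0.63), with p = 0.00858 from edgeR and p = 0.124 from a permutation of mean counts that swapped genotypes within rearing conditions. The adjusted p from edgeR was 0.554, in a comparison that called 1.65% of all genes. The ratio of scaled counts was 7.51, with a counting interval of 1.01 to 333.3. A single library, Tph2-/- MS replicate 8, held 3 of the 8 counts, and without it the lg2FC was 1.19 (SE 0.65) and not called. DESeq2 on all libraries also gave 1.19 (SE 1.31). Under C, Tph2+/+ had 0 counts and Tph2-/- 4 counts, whose counting interval holds the floor of 3 (fitted lg2FC 2.28, SE 0.94, p = 0.0250 from edgeR, exact permutation p = 0.2).

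Maoa (chrX:16619698-16687818, plus strand), whose product prefers 5-HT and noradrenaline as substrates, was not called in any comparison. Its 31 counts were spread over 20 mice, and 12 of them lay in Tph2-/- C, where 5 of 8 mice had between 1 and 4. The other groups had between 3 and 6 counts, with no mouse above 2. In Tph2-/- mice, MS had 3 counts and C 12, an lg2FC of -1.67 (SE 0.76, p = 0.0284 from edgeR, exact permutation p of U on counts = 0.132), and the groups overlapped between 0 and 2 counts. Rearing conditions over all genotypes had 10 counts for MS and 21 for C, a scaled ratio of 0.459 with an interval of 0.193 to 1.02.

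Htr1b encodes the receptor that acts at axon terminals, as an autoreceptor on raphe axons and on terminals of other neurons. In Tph2+/+ C its counts ranged from 20 to 48 with a median of 35, and in Tph2+/+ MS from 28 to 51 with a median of 47. They ranged from 17 to 58 with a median of 47.5 in Tph2+/- C and from 29 to 56 with a median of 37 in Tph2+/- MS. In Tph2-/- C they ranged from 27 to 43 with a median of 34.5, and in Tph2-/- MS from 24 to 50 with a median of 36.5. The groups overlapped widely, and the highest mice were in Tph2+/-.

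Scaled to library size, Htr1b was 48.3 ± 6.8 CPM (SD, n = 8) in Tph2+/+ C and 54.2 ± 10.7 in Tph2+/+ MS. It was 42.3 ± 7.3 CPM in Tph2-/- C and 45.7 ± 13.7 in Tph2-/- MS, with Tph2+/- at 51.5 ± 12.04 under C and 47.7 ± 6.5 after MS. Over both rearing conditions the lg2FC of Tph2-/- against Tph2+/+ was -0.23 (SE 0.11), with p = 0.0395 from edgeR (adjusted p = 0.778) and p = 0.176 from the permutation of mean raw counts within rearing conditions. That permutation used counts not scaled to library size. The ratio of scaled counts for Tph2-/- against Tph2+/+ was 0.843, with a 95% counting interval of 0.751 to 0.946. This interval covers counting error only, and the variance of Htr1b within groups was 1.55 times the counting variance. DESeq2 gave an lg2FC of -0.23 (SE 0.11) for this comparison. Without the 7 C mice numbered above the MS mice, the lg2FC from edgeR was -0.17 (SE 0.13). The lg2FC of MS over all genotypes was 0.05, with a 95% interval of -0.13 to 0.22, the narrowest interval of the 10 genes in this comparison. In Tph2+/+ mice, raw counts were higher in MS by the two-sided exact permutation test of the Mann-Whitney U statistic (p = 0.0412), but CPM gave no p below 0.05 and the lg2FC was 0.16 (interval -0.14 to 0.46). D430036J16Rik on the opposite strand had an lg2FC of -0.16 (SE 0.10, adjusted p = 0.846) for Tph2-/- against Tph2+/+ and an adjusted p of 0.867 over the 6 groups.

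Htr1a (chr13:105443639-105448122, plus strand), the somatodendritic autoreceptor of raphe neurons and a postsynaptic receptor in the limbic system, had between 1 and 8 counts per mouse. The median was 4.5 for Tph2+/+ C but 2 for Tph2+/+ MS, where 1 mouse had 7 counts and the others up to 3. The counts of Tph2+/+ C ran from 1 to 7, so the groups overlapped. The lg2FC of MS in Tph2+/+ was -0.87 (SE 0.45), with p = 0.04997 from edgeR (adjusted p = 0.765) and p = 0.203 from the exact permutation test of U on counts. Medians in the other groups were 2.5 in Tph2+/- C (1 to 7), 4 in Tph2+/- MS (2 to 6), 4.5 in Tph2-/- C (2 to 8) and 3 in Tph2-/- MS (1 to 7). Over both rearing conditions, Tph2-/- differed from Tph2+/+ by an lg2FC of 0.02, with an interval of -0.54 to 0.58.

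Htr2a (chr14:74640840-74709494, plus strand) encodes the Gq/11-coupled receptor of cortical pyramidal cells and of many interneurons. It was listed highest in Tph2-/- C, where counts ran from 1 to 9 with a median of 6.5. In Tph2-/- MS they ran from 0 to 8 with a median of 3, so that the groups overlapped. The lg2FC of MS in Tph2-/- was -0.86 (SE 0.40), with p = 0.0307 from edgeR (adjusted p = 0.760) and p = 0.0333 from the exact permutation test of U on raw counts. Without the 7 C mice numbered above the MS mice, 3 of which belong to Tph2-/- C, the lg2FC was -0.67 (SE 0.47). The other groups had medians of 3 in Tph2+/+ C (2 to 6), 4 in Tph2+/+ MS (2 to 6), 3.5 in Tph2+/- C (2 to 8) and 5 in Tph2+/- MS (2 to 8). The difference of the MS effect between Tph2-/- and Tph2+/+ was -0.68 on the lg2FC scale, with an interval of -1.83 to 0.46, and was not called.

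Htr2c (chrX:146962513-147197277, plus strand), whose transcript is known for RNA editing and for high levels in the choroid plexus, had medians between 2.5 and 5.5 counts. The group medians were 5 in Tph2+/+ C (2 to 13), 5.5 in Tph2+/+ MS (1 to 11), 4 in Tph2+/- C (0 to 9) and 5.5 in Tph2+/- MS (1 to 11). Tph2-/- C had the least spread, with 3 to 7 counts and a median of 5, and Tph2-/- MS the most, with 1 to 13 and a median of 2.5. All groups overlapped, and no comparison reached a nominal p of 0.05. The intervals were wide: for Tph2-/- against Tph2+/+ the lg2FC was -0.31 with an interval of -0.82 to 0.19. The gene hosts microRNAs and the small nucleolar RNA Snora35 on its own strand, none of which shares exon bases with it.

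Htr4 (chr18:62324204-62496577, plus strand) had 25 counts in all, between 2 and 6 per group, and no mouse had more than 3. It was listed in 6 of 8 mice of Tph2-/- MS, each with 1 count, and in 2 to 4 mice of the other groups. No comparison reached a nominal p of 0.05.

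Htr7 (chr19:35958734-36057507, minus strand), the Gs-coupled receptor known from thalamus, hypothalamus and hippocampus, had the largest difference in lg2FC of MS between Tph2-/- and Tph2+/+ among the 5 receptors with at least 1 count per library. In Tph2+/+ C its counts ran from 1 to 4 with a median of 2, and in Tph2+/+ MS from 0 to 9 with a median of 5.5. In Tph2-/- C they ran from 2 to 9 with a median of 3.5, and in Tph2-/- MS from 0 to 6 with a median of 2. All 4 groups overlapped, and so did those of Tph2+/-, with medians of 3 in C (0 to 5) and 2 in MS (2 to 9).

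The lg2FC of Htr7 for MS was 0.90 in Tph2+/+ (SE 0.46, exact permutation p of U on counts = 0.110) and -0.61 in Tph2-/- (SE 0.44, exact p = 0.171). The difference between these effects, named GE2 in the study, was -1.52 (SE 0.64, adjusted p = 0.942, edgeR), with a 95% interval of -2.77 to -0.26. GE2 called 1.01% of all genes and 0 of the 10 genes. With the replicate number as a block, which is not a pairing of mice, the lg2FC was -1.56 (SE 0.60) and passed the threshold for a DEG. Under C, raw counts of Htr7 were higher in Tph2-/- than in Tph2+/+ by the exact permutation test of U (p = 0.0123), the smallest of 70 such tests on counts, of which 3 lay below 0.05 and 0 below 0.01. The same 70 tests on CPM had 0 below 0.05, with a smallest exact p of 0.0623. For GE1, the corresponding difference between Tph2+/- and Tph2+/+, the lg2FC was -0.81 with an interval of -2.11 to 0.48, and GE1 called 0 of the 10 genes against 1.75% of all.

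**Figure D4:**
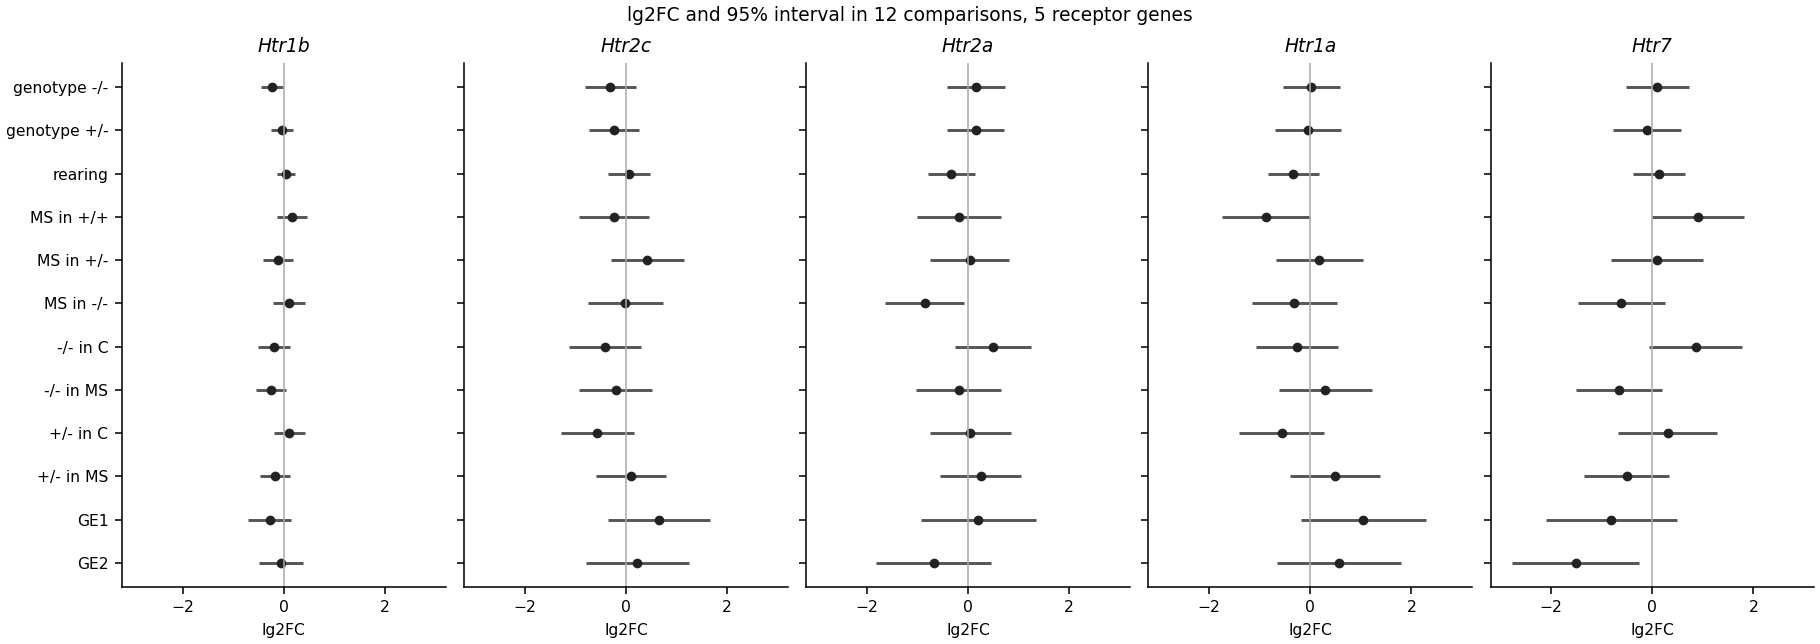
lg2FC (points) and 95% intervals (lines) of the 5 receptor genes with at least 1 count per library in 12 comparisons, with a grey line at 0. GE1 and GE2 are the differences of the MS effect in Tph2+/- and Tph2-/- from that in Tph2+/+, and "in C" and "in MS" are genotypes against Tph2+/+ under that rearing. Htr1b has the narrowest intervals, and GE2 of Htr7 lies at -1.52.

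The remaining comparisons called 0 of the 10 genes. The shares of all genes called were 1.17% for Tph2+/- against Tph2+/+ over both rearing conditions, 1.57% for MS in Tph2+/+, 1.01% for MS in Tph2+/- and 0.959% for MS in Tph2-/-. For Tph2-/- against Tph2+/+ they were 0.890% under C and 1.65% under MS, and for Tph2+/- against Tph2+/+ they were 1.49% and 1.29%. On 10 genes, each of these shares corresponds to less than 1 gene.

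The summed count of the 10 genes per mouse followed Htr1b. It ranged from 27 to 70 with a median of 57 in Tph2+/+ C, from 42 to 71 with a median of 65 in Tph2+/+ MS, from 25 to 82 with a median of 66.5 in Tph2+/- C and from 48 to 82 with a median of 55 in Tph2+/- MS. In Tph2-/- C it ranged from 48 to 68 with a median of 57, and in Tph2-/- MS from 36 to 64 with a median of 53.5. All 6 groups overlapped, and the lowest mice, with 25 and 27, were libraries rich in Gm42418. In CPM the group means lay between 66.4 ± 15.96 in Tph2-/- MS and 76.4 ± 11.6 in Tph2+/+ MS (SD, n = 8). Without Htr1b, 881 counts remained. The summed count of the other 9 genes then had its highest median in Tph2-/- C, with 24.5 (11 to 28). The other groups had medians of 16 to 18.5, and their ranges lay between 7 and 26 and overlapped with Tph2-/- C. These counts are not scaled to library size. In CPM the median was 28.9 in Tph2-/- C (14.9 to 31.0) and 25.1 in Tph2+/+ C (11.6 to 33.1). The other medians lay between 18.5 in Tph2+/- C and 23.3 in Tph2+/- MS.

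**Figure D5:**
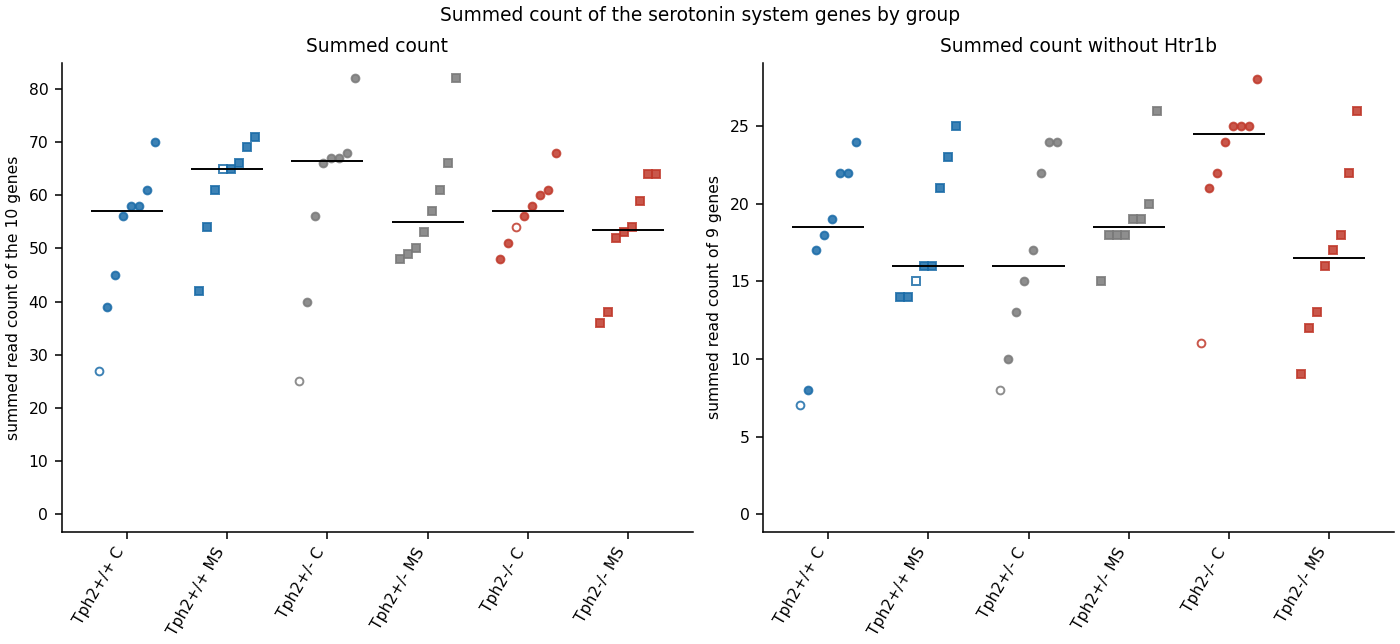
Summed read count per mouse of the 10 genes (left) and of the 9 genes without Htr1b (right) by group, with 1 point per mouse, a line at the group median and open symbols for the 4 libraries rich in Gm42418. Medians lie between 53.5 and 66.5 on the left, and on the right at 24.5 in Tph2-/- C and between 16 and 18.5 elsewhere. The counts are not scaled to library size.

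In the 5-HT pathway lists around the 10 genes, no call had an adjusted p below 0.05. The comparisons called 0.890% to 2.00% of all genes, and in lists of this size single calls, or 0, say nothing about the pathway. Of 8 further 5-HT receptor genes, 8 had counts and 0 were called in any comparison. Of 14 receptor partners and G protein genes, 14 had counts and 0 were called in any comparison. Among 10 other genes of synthesis and vesicle loading, Spr, which makes the tetrahydrobiopterin cofactor, was lower in Tph2-/- (lg2FC -1.60, SE 0.59, adjusted p = 0.531) on 20 counts in all. Slc7a5, which carries tryptophan and other large amino acids across membranes, was lower in MS (lg2FC -1.31, SE 0.50, adjusted p = 0.740) on 24 counts.

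Of 11 other genes of uptake and breakdown, 9 had counts. Slc29a4 and Slc22a2, low-affinity carriers of 5-HT, were called higher in Tph2-/- than in Tph2+/+ after MS on 17 and 12 counts in all. Aldh2, which oxidizes the aldehyde left by monoamine oxidase, was lower in Tph2+/- (lg2FC -1.37, SE 0.51, adjusted p = 0.772) on 61 counts. Nkx2-2 was lower in Tph2-/- than in Tph2+/+ under C (lg2FC -0.90, SE 0.34, adjusted p = 0.787).

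Marker lists of cell types were examined for the comparisons in which Slc6a4 and Maob were called. Every listed marker had at least 1 count in any library, except 2 of 6 for the hypothalamus. All 12 markers of amygdala neurons had counts, with means of 0.167 to 4.79, and 0 of 12 were called for Tph2-/- against Tph2+/+ or for MS against C. Between Tph2-/- and Tph2+/+, where 1.65% of all genes were called, 1 of 6 choroid plexus markers was called (Ttr, the transthyretin gene, higher at lg2FC 1.49, SE 0.36, adjusted p = 0.0147), and 0 of 6 each for astrocytes, oligodendrocytes, microglia and hypothalamus and 0 of 5 for endothelial cells. Of the 12 abundant brain genes, 2 (Syt1 and Tuba1a) were called higher in Tph2-/-. Between MS and C, where 1.26% of all genes were called, 1 of 6 astrocyte markers (Slc1a2) and 1 of the 12 abundant genes (Snap25) were called, both lower in MS. The mitochondrial gene mt-Nd6 was lower in both comparisons, with lg2FC -0.32 for Tph2-/- (SE 0.07, adjusted p = 0.0079) and -0.25 for MS (SE 0.06, adjusted p = 0.030), and mt-Co1 was higher in Tph2-/- (lg2FC 0.25, SE 0.07, adjusted p = 0.087). Summed over the choroid plexus list, the levels ran from 71.8 to 155.8 CPM in the Tph2+/+ C and Tph2-/- C groups and from 66.0 to 140 CPM in the corresponding MS groups. Kcnj13 supplied most of this sum, with a mean of 82.5 counts, while Ttr had 3.06 and the other 4 markers between 0.0208 and 0.417, so that the sum hardly reflects Ttr. The part of these cells and of the mitochondrial genes in the values of the 10 genes was not tested.

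The genes most like Htr1b in CPM over the 48 libraries, among 7973 with a mean of at least 5 counts, were 4933424G06Rik (Spearman rho 0.54), Gm37446 (0.51) and Eif5b (0.50). For Htr2c they were Cables1 (0.53), Akap14 (0.53) and Wdr12 (0.51). The 99th percentile of rho was 0.35 and 0.37, and these values share library and depth.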

How the data were processed

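RNA libraries of 48 mice (TruSeq Stranded Total RNA, 125-base read pairs) were mapped to GRCm38.p5. The submitters' processing notes list STAR, HTSeq and DESeq2, and the versions of STAR and HTSeq, the annotation and the strand setting are not given in the sources used here. The deposited values are raw read counts, 1 row per Ensembl gene, which the authors did not normalize. The 5 special entries for pairs on no single gene were left out of library sizes, and all columns matched a mouse. Genes were named and placed with GENCODE M21 on GRCm38, which holds 48058 of the 48440 genes.

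The fits held the 32234 genes with at least 1 count in any library, all 10 members among them, but not Lars2, which the study also excluded. Counts were scaled by TMM and fitted with edgeR 4.0.16 (R 4.3.3), with 1 coefficient per group and a prior count of 0.125, and contrasts were tested by the quasi-likelihood F test with Benjamini-Hochberg adjustment. The SE is the lg2FC divided by the root of F. The method was tested on simulated data, with changes set only in genes with a mean of at least 1 count. Slc6a4 and Maob lie below that mean, so that this test did not cover changes in genes like these. Alternatives were DESeq2 1.42.0, its size factors, filters, a replicate block, robust dispersion, libraries left out, and two-sided exact permutation tests of Mann-Whitney's U (smallest possible p 0.000155). Stratified permutations of mean counts (100000 resamples) and leaving out the library with the most counts of Maob or Slc6a4 were added after seeing the data. Python 3.11.15 with SciPy 1.17.1 was used.

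All 10 members are named with their counts and the 6-group test. A single contrast of a member is given with lg2FC, SE and p where its nominal p is below 0.05, and genes of other lists where called, except that results of some listed genes are not reported here. The members and lists were chosen with earlier results of these data known. Separate mice were the replicates. No pair of libraries within a group agreed within sampling noise (smallest chi-square per degree of freedom 1.53 over 168 pairs).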

Additional observations from a re-analysis of the deposited data

Results flagged for a closer look

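Within a group of 8 mice, 6 values of single genes stood far from the other 7 by Dixon's criterion, which chance alone meets in about 1 in 20 groups of continuous values. In low tied counts it is met more easily, and by construction where 1 mouse has a count and the other 7 have 0. In Tph2+/- MS, the highest Slc6a4 count was 3, with the other mice at 0 or 1, and the highest Htr7 count was 9, with the others between 2 and 4. In Tph2+/+ MS, the highest Htr1a count was 7, with the others at 3 or below. Maob stood out in 3 groups in which most mice were at 0: the highest count was 1 in Tph2+/+ MS, 1 in Tph2+/- MS and 3 in Tph2-/- MS.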

How the results depend on the processing

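Of 184 counts of called members under the alternatives, 170 equaled the count first given and 14 moved. The equal counts were mostly 0 in both, since the count first given was above 0 only for Tph2-/- against Tph2+/+ and MS against C. In no setting did a member reach an adjusted p below 0.05. For Tph2-/- against Tph2+/+ and for MS against C, the count fell from 1 to 0 with DESeq2, the replicate block and the stratified permutation. It also fell to 0 with filterByExpr (6781 genes, of the members only Htr1b) and a mean of at least 1 count (15104 genes, 5 members). Neither filter kept Maob or Slc6a4, so that these falls follow from the filters alone. For Tph2-/- against Tph2+/+ the count also fell from 1 to 0 without the 7 C mice numbered above the MS mice (Maob lg2FC 1.94, SE 0.73). Leaving out 1 library, Tph2-/- MS replicate 8 or Tph2+/- MS replicate 1, gave counts between 0 and 1 for these comparisons. Without these 7, Tph2+/+ C and Tph2-/- C were both at 0 for Slc6a4, and the fitted lg2FC are no estimates: it went from 1.13 to -0.0114 (SE 28.8) for Tph2-/- against Tph2+/+, from 2.27 to 0 under C, and from -2.29 to -0.0228 (SE 57.6) for GE2. For MS against C it went from 1.35 to 2.00 (SE 0.62), with these groups at 0 entering the average. Without the 4 libraries rich in Gm42418, Maob (lg2FC 2.39) and Slc6a4 (1.54) were still called. The cause of these changes was not tested.

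With the replicate block, Maob had an lg2FC of 1.75 (SE 0.89), Slc6a4 one of 1.35 (SE 0.58), and GE2 went from 0 to 1 member (Htr7). The numbers did not pair the mice: 24 of 120 same-numbered pairs had deviations correlated above 0.1 (range -0.37 to 0.31), and 7 of 48 libraries correlated best with their own number.

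As percent of the overall median, the summed count without Htr1b, not scaled to library size, was 88.9 in Tph2+/+ MS (112.1 with it). It was 136 in Tph2-/- C (98.3 with Htr1b). Under the alternatives, 22 of the 24 values moved by less than the spread between mice. Over all genes, the percent called ranged with the setting from 0.664 to 2.30 for the 6 groups, 0.496 to 1.77 for Tph2-/- and 0.270 to 1.26 for Tph2+/- against Tph2+/+, and 0.276 to 1.32 for MS against C. It ranged from 0.689 to 2.67, 0.208 to 1.13 and 0.254 to 0.994 for MS in Tph2+/+, Tph2+/- and Tph2-/-, from 0.254 to 1.20 and 0.549 to 2.07 for Tph2-/- under C and MS, from 0.599 to 2.14 and 0.326 to 1.41 for Tph2+/-, from 0.859 to 2.96 for GE1 and from 0.242 to 1.28 for GE2. For the 5 members with a mean below 1 count per library, of which 2 were called, a comparison without a call does not show that a difference is absent, and no detection limit was computed.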
